A study of Mus musculus with 2 samples.

Results

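The mouse expression array used for these long-term hematopoietic stem cells (LT-HSCs) carries, beside probes for named genes, 15606 probes on the autosomes whose only name is a genome interval and a strand. They were chosen by that name alone, with chromosomes X and Y left out, and make up 28.0% of the 55662 distinct probes kept. They stand for 4432 regions, a region being 1 interval on 1 strand, drawn from 3390 intervals of the mouse genome build mm9. Of these intervals, 1042 have probes for both strands. A region has between 1 and 10 probes of 60 bases (median 3), and the intervals run from 62 to 7128487 bases with a median of 10745. They are called intergenic here after the array's category, although 1192 of the regions (26.9%) hold a gene-named probe on either strand.

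Long intergenic noncoding RNAs are transcribed by RNA polymerase II outside protein-coding genes, are often spliced and polyadenylated, and are commonly found at lower levels and in fewer cell types than messenger RNAs. Some act in the nucleus, as Malat1 does in splicing speckles, and others are transcripts of enhancers or of promoters read in the opposite direction. The name of an array probe says where a transcript was sought and not that LT-HSCs make one.

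RNA came from LT-HSCs of 2-year-old C57BL/6J mice, sorted from bone marrow as CD150+CD48-Flt3-CD34- LSK cells by the labels, to which the methods add CD41-, and was hybridized with the dye Cy3 on 1 array per genotype, both on the same slide. The mice of the array labelled p38KO carried CAG-CreERT2, a Cre recombinase driven by a ubiquitous promoter and switched on by tamoxifen (TAM), and floxed alleles of p38α, the stress kinase encoded by Mapk14. They received TAM at about 1 year of age (50 to 60 weeks). The wild-type (WT) array held cells of age-matched p38α fl/fl mice without Cre that had also received TAM. How many mice gave each sample is not stated in the sources used here. With 1 array per genotype there is no replicate, so no p-value or error between mice is given, and each difference below is one between these arrays.

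Signals are log2 values relative to each array's own 75th percentile, a difference is p38KO minus WT, and a probe is called measured when the scanner software placed it well above background on both arrays. Well above background were 67.9% of all probes on the WT array and 69.0% on the array labelled p38KO. Among 276 probes spotted at least 3 times, the median standard deviation of the difference between spots was 0.12, and it was 0.37 for signals below -3 against 0.07 above 1. This is the error of a spot and not of a mouse. Mapk14 itself was at 2.34 on the WT array and 2.31 on the other, a difference of -0.04. Which part of the gene is deleted is not stated in the sources used here, so this signal does not settle whether it was deleted. The label rests on the submitters' records. The paper reports deletion by genomic PCR of blood cells from mice treated in this way, and lower expression of p38MAPK pathway genes in the knockout LT-HSCs. Kit, which marks stem and progenitor cells, read 5.66 on the WT array and 5.57 on the other. Of the mature-cell markers, the neutrophil genes Ltf, S100a8, S100a9, Ngp and Camp were 1.18 to 2.23 higher on the array labelled p38KO and the plasma cell gene Jchain 3.75 higher, while Procr and Mecom, which mark LT-HSCs, differed by -1.22 and -1.44. In a bulk sample, fewer cells of a type and less RNA per cell cannot be told apart, and the part that other cells' RNA plays in the differences below was not tested.

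The probes that the results turn on are shown first, each as the 60 bases spotted on the array. The first set belongs to regions in which every measured probe was at least 2-fold higher or lower on the array labelled p38KO. In the chromosome 16 pair, capitals mark the 54 bases of each probe that are complementary to the probe shown for the other strand, and in the chromosome 6 probe the 31 bases whose complement is in a probe for the gene model LOC102632110.
chr16:89961600-89971725, forward strand: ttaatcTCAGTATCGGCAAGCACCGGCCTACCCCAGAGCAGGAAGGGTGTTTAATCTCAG
chr16:89961600-89971725, reverse strand: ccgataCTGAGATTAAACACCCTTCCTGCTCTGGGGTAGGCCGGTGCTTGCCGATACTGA
chr3:51784862-51793999, forward strand: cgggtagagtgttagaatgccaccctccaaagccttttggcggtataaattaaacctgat
chr9:56911160-56911452, forward strand: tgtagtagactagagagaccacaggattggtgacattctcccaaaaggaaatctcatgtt
chr15:83181291-83197750, forward strand: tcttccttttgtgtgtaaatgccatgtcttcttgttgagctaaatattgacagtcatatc
chr17:84359207-84360270, reverse strand: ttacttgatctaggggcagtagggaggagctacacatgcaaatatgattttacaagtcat
chr17:84350367-84351803, reverse strand: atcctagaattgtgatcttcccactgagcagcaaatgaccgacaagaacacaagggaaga
chr1:167802183-167805411, forward strand: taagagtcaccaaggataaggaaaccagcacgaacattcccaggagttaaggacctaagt
chr13:16050871-16065396, forward strand: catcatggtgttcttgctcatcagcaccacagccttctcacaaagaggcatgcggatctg
chr6:47926997-47927875, forward strand: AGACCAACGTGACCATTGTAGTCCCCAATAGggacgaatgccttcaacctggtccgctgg

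The second set holds probes of the brightest regions, with runs of at least 5 copies of a dinucleotide in capitals. The first lies at the Malat1 locus, the second in the ribosomal RNA locus, and the other 3 carry such a repeat.
chr19:5801802-5802597, reverse strand: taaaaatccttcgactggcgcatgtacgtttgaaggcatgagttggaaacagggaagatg
chr17:39960567-39992817, reverse strand: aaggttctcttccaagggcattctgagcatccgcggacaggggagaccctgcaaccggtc
chr6:92040526-92041319, forward strand: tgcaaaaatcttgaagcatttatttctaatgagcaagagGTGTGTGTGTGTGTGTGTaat
chr5:52461266-52541416, reverse strand: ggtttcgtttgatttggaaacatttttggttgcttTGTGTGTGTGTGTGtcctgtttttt
chr17:13806767-13824342, forward strand: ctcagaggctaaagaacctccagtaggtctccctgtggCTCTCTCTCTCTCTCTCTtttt

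Signal above background was found for most of these regions. On the WT array 10050 coordinate-named probes (64.4%) were well above background, and on the array labelled p38KO 10304 (66.0%). Both arrays measured 9374 of them (60.1%), which touch 3687 of the 4432 regions (83.2%). Another 676 probes were above background on the WT array alone, 930 on the array labelled p38KO alone, and 4626 (29.6%) on neither. Over all 53411 autosomal or unplaced probes these counts were 1907, 2528 and 14510 (27.2%), so more probes on the p38KO-labelled array alone was not particular to intergenic names. Probes named by a gene with an mRNA accession (NM) were measured on both arrays in 70.1% of cases, and those with a noncoding RNA accession (NR) in 49.8%, so the intergenic probes lay between these classes.

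Measured intergenic probes had a median signal of -1.59 on the WT array, with quartiles of -2.88 and -0.04, and of -1.47 on the array labelled p38KO, with quartiles of -2.77 and 0.09. NR probes had medians of -1.60 and -1.42, and NM probes of -0.22 and -0.34. The share measured followed the base composition of the probe. It was 44.6% of intergenic probes with a GC content of 35 to 40% and 94.1% of those at 60% or more, and 58.2% and 94.4% of gene-named probes in the same bands. Signals of different probes can depend on their sequence as well as on RNA, and the order of brightness given here is not an order of abundance.

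The brightest regions included some at the loci of known abundant noncoding RNAs. The region chr19:5801802-5802597 on the reverse strand lies 6.30 kb from a probe for NEAT2, another name of Malat1 that the array uses beside it. Its 3 probes read 8.86, 8.35 and 6.63 on the WT array and 8.85, 8.39 and 6.66 on the other, and no difference exceeded 0.05. Around it, 3 further coordinate-named regions covered the same locus, and their 7 probes differed by -0.21 to 0.57. The 3 NEAT2 probes differed by -0.25 to -0.11 and the Malat1 probe by -0.15. The NEAT2 and Malat1 probes and the region chr19:5801802-5802597 are all on the reverse strand, and whether they read the same transcript was not tested.

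The region chr17:39960567-39992817 on the reverse strand lies 2.37 kb from a probe for Rn45s, the ribosomal RNA precursor. That probe is on the forward strand, opposite to the region, and whether the region's signal comes from ribosomal RNA was not tested. The brightest probe of the region read 8.95 and 8.50, a difference of -0.44, but its 5 probes ran from -1.66 to 0.40. Probes of 1 region can thus disagree by more than the error of a spot.

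Tandem dinucleotides were frequent among bright probes. Of the 100 brightest intergenic probes 16 carried one, against 80 of all 15606 (0.513%). Intergenic probes with such a repeat were measured in 88.8% of cases and had a median signal over both arrays of 1.23. Those without one were measured in 59.9% of cases, with a median of -3.23. The same held for gene-named probes, of which 305 (0.865%) carried a repeat. These were measured in 93.4% of cases with a median of 6.04, against 66.4% and -2.25 for gene-named probes without one. In chr6:92040526-92041319 on the forward strand, 15.2 kb from Fgd5, the repeat-bearing probe read 8.16 and 8.44, whereas the other 2 read -2.26 and -1.29 on the WT array and -1.72 and 0.83 on the array labelled p38KO. Whether the signal of such probes comes from the named interval was not tested.

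Between the arrays, intergenic probes were shifted slightly towards higher signal on the array labelled p38KO. The median difference of the 9374 measured probes was 0.13, with quartiles of -0.28 and 0.50, and 58.6% lay above 0. NM probes had a median of -0.08, with 43.1% above 0, and NR probes a median of 0.13, with 57.2% above 0. The shift was not particular to noncoding names, since the 4859 measured gene-named probes with neither kind of accession had a median of 0.12, with 56.6% above 0. The 32 measured probes of lncRNAs that the array names by symbol, such as NEAT1, TUG1 and KCNQ1ot1, had a median of 0.14.

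**Figure D1:**
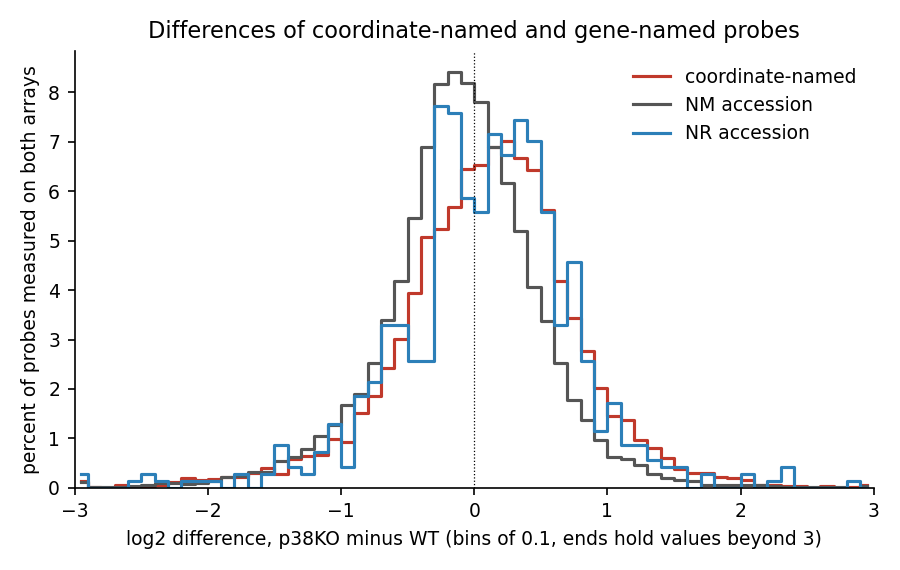
Percent of measured probes (y axis) in bins of 0.1 of the log2 difference p38KO minus WT (x axis) for coordinate-named probes, NM probes and NR probes, with no replicates. The coordinate-named curve has its median at 0.13 and the NM curve at -0.08.

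The shift was not limited to dim probes. In the quartiles of mean signal set over intergenic and gene-named probes together, the intergenic medians were 0.10, 0.18, 0.14 and 0.07 from the dimmest to the brightest, and the gene-named medians were 0.06, -0.01, -0.06 and -0.11. Above a mean signal of 4, however, the 261 intergenic probes had a median of -0.15 and the 1114 NM probes one of -0.08. All 19 autosomes had an intergenic median above 0, from 0.01 on chromosome 17 to 0.21 on chromosome 15, and on each of them it exceeded the gene-named median of that chromosome.

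**Figure D2:**
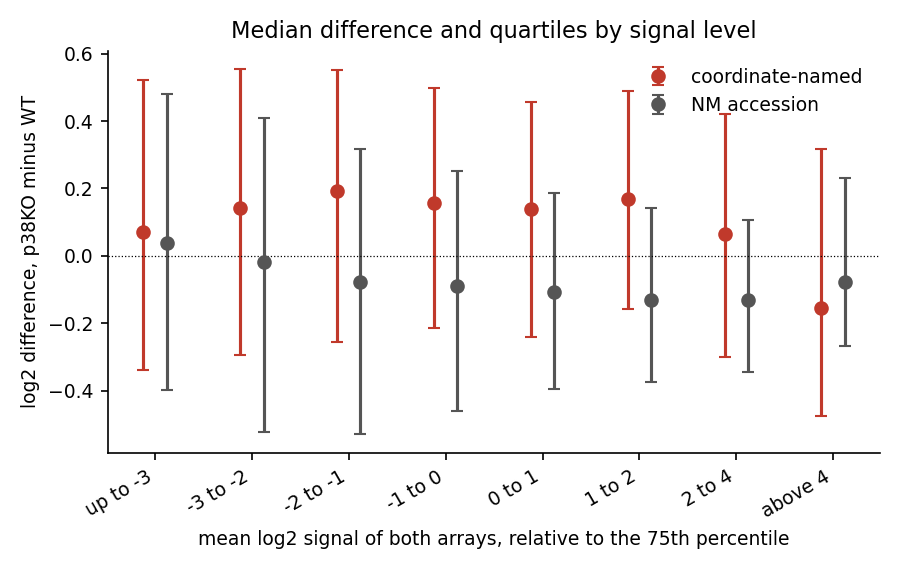
Median log2 difference p38KO minus WT (y axis; bars reach from the lower to the upper quartile of probes) by bins of mean log2 signal (x axis) for coordinate-named and NM probes. The coordinate-named medians lie above the NM medians in every bin up to a signal of 4 and below them in the brightest bin.

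Where the interval lay made a difference of similar size. In the 3240 regions whose interval holds no gene-named probe, the measured probes had a median difference of 0.17. It was 0.09 in the 788 regions with a gene-named probe on the same strand and 0.02 in the 404 with one on the opposite strand only. Intervals of up to 1000 bases had a median of 0.27 and intervals of over 30000 bases one of 0.11.

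At least 2-fold lower on the p38KO-labelled array were 494 measured intergenic probes (5.27%), against 5.52% of all measured autosomal or unplaced probes. At least 2-fold higher were 663 (7.07%), against 5.01%. Of NM probes 6.10% were lower and 2.93% higher, of NR probes 5.44% and 6.15%, and of gene-named probes with neither accession 4.65% and 8.62%. The share of lower intergenic probes was near the background, and that of higher ones lay above it but below that of the last class. With a loess between the arrays 552 (5.89%) were lower and 576 (6.14%) higher, against 6.15% and 4.39% of all probes. When probes measured on 1 array only were added, with the dim side at the lowest signal well above background, 834 (7.60%) were lower, against 7.49% of all probes, and 973 (8.86%) were higher, against 6.31%. These counts depend on the background correction. With normexp and an offset of 50, where the median processed signal of the arrays was 25.1 and 19.9, 50 probes were lower and 50 higher (0.533% each), against 0.662% and 0.647% of all probes, so the share of higher probes was then not above the background.

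A single probe was a weak guide to its region, above all at low signal. The regions named first here were chosen for an extreme difference at their brightest probe, so less extreme values at their other probes were likely from the start. Of the 10 regions with the largest falls at their brightest probe, 7 had another measured probe, and in none of these were all probes at least 2-fold lower. Of the 10 with the largest rises, 5 had another measured probe, and in 1 all were at least 2-fold higher. The largest rise, in chr8:70623390-70645212 on the reverse strand, was from -3.96 to 0.11 (4.07), while its other probes differed by 1.03 and -1.27. The largest fall, in chr16:45016828-45069177 on the forward strand, was from 3.07 to -1.63 (-4.70), and its other 2 probes were not well above background on either array.

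Over the 2400 regions with at least 2 measured probes, the differences of the brightest and the next probe had a Pearson r of 0.33 (Spearman rho 0.36) across regions, and 67.0% had the same sign. This rose with the signal. Where the dimmer probe lay at or below -3 the r was 0.16, between -1 and 1 it was 0.50, and above 1 it was 0.70 over 289 regions, with 81.0% of the same sign. Over 4505 gene names the r was 0.20 in all and 0.46 where the dimmer probe lay above 1. Both probes share the arrays, and regions are not independent replicates.

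**Figure D3:**
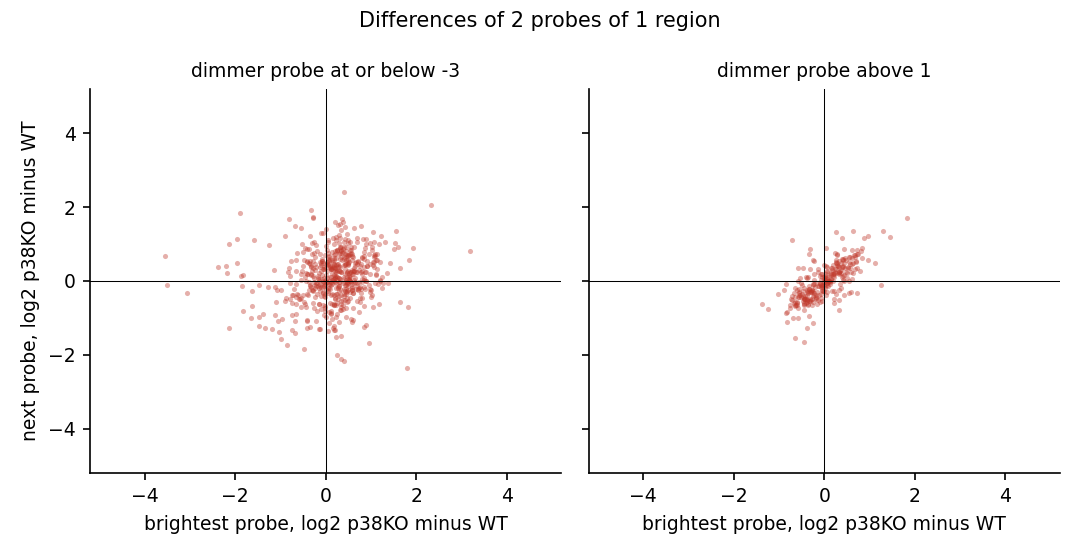
Log2 difference p38KO minus WT of the next brightest probe (y axis) against that of the brightest probe (x axis), 1 point per region, for regions whose dimmer probe lay at or below -3 (left) or above 1 (right). The points scatter on the left (r 0.16) and lie along the diagonal on the right (r 0.70).

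All measured probes were at least 2-fold lower in 18 of these 2400 regions (0.75%) and at least 2-fold higher in 25 (1.04%). Over all names with at least 2 measured probes the shares were 0.71% and 0.637%, so the share of lower regions was near the background. With normexp the measured probes of 16 of the 18 and of all 25 kept their direction, but every probe passed 2-fold in 1 and 4 regions.

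Among the higher regions, chr16:89961600-89971725 was higher on both strands. Its 3 forward probes went from -0.38, -0.38 and -0.25 to 1.39, 1.68 and 1.61, and its 4 reverse probes from 0.15, 0.15, -0.19 and 0.20 to 1.93, 1.98, 1.66 and 1.91. The 7 differences lay between 1.70 and 2.05. These probes are not independent readings: their starts span 40 bases on each strand, those of 1 strand share runs of up to 50 and 58 bases, and 1 forward and 1 reverse probe are complementary over all 60. The sequence also repeats itself: the forward probe shown above begins and ends with the same run of bases. It is complementary to the reverse probe shown over 54 bases, more than their positions overlap. Whether the signal of these probes comes from the named interval was not tested. No gene-named probe lies within 100 kb of this interval.

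In chr3:51784862-51793999 on the forward strand, the 3 probes went from -0.79, -0.39 and -0.27 to 1.22, 1.33 and 1.66. The nearest gene-named probe, for 5430420F09Rik at 81.6 kb, differed by 1.93. In chr9:56911160-56911452 on the forward strand, the 2 probes went from -1.71 and -2.56 to 0.25 and -0.54. That region lies 1.40 kb from a probe for Ptpn9, a tyrosine phosphatase gene, which differed by -0.65. The region and the gene beside it thus differed in opposite directions.

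The region with the largest smallest change, chr15:83181291-83197750 on the forward strand, shows what the rule leaves out. Its 2 measured probes went from -2.91 and -4.07 to -0.58 and -2.01, but another probe was above background on the WT array alone (-3.84 against -5.85) and the other 2 on neither. In chr13:24615451-24615973 on the forward strand, 3 probes differed by 1.31 to 1.46, and a probe for Cmah, the hydroxylase that makes N-glycolylneuraminic acid, at 53.4 kb differed by 2.37.

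Among the lower regions, a pair of neighbours on the reverse strand of chromosome 17 stood 38.4 and 30.7 kb from a probe for 1810073O08Rik. In chr17:84359207-84360270 the 3 probes went from -0.37, 1.32 and -1.69 to -3.02, -0.94 and -3.45. In chr17:84350367-84351803 they went from 0.87, 0.24 and 1.96 to -0.51, -3.13 and 0.41. The 1810073O08Rik probe differed by -0.81, so these 7 probes were all lower on the array labelled p38KO.

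In chr1:167802183-167805411 on the forward strand, 0.56 kb from a probe for the transcription factor gene Pou2f1, the measured probes went from 1.24 and -0.19 to -0.58 and -2.48, while Pou2f1 differed by -0.42. In chr13:16050871-16065396 on the forward strand, 56.6 kb from Inhba, which encodes the βA subunit of inhibins and activins, they went from 2.72 and 0.45 to 1.22 and -0.87, and Inhba differed by -1.65. In chr6:47926997-47927875 on the forward strand, they went from 4.66, 1.67 and -2.05 to 3.35, 0.22 and -3.99, and a gene-named probe 0.13 kb away differed by -1.37.

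**Figure D4:**
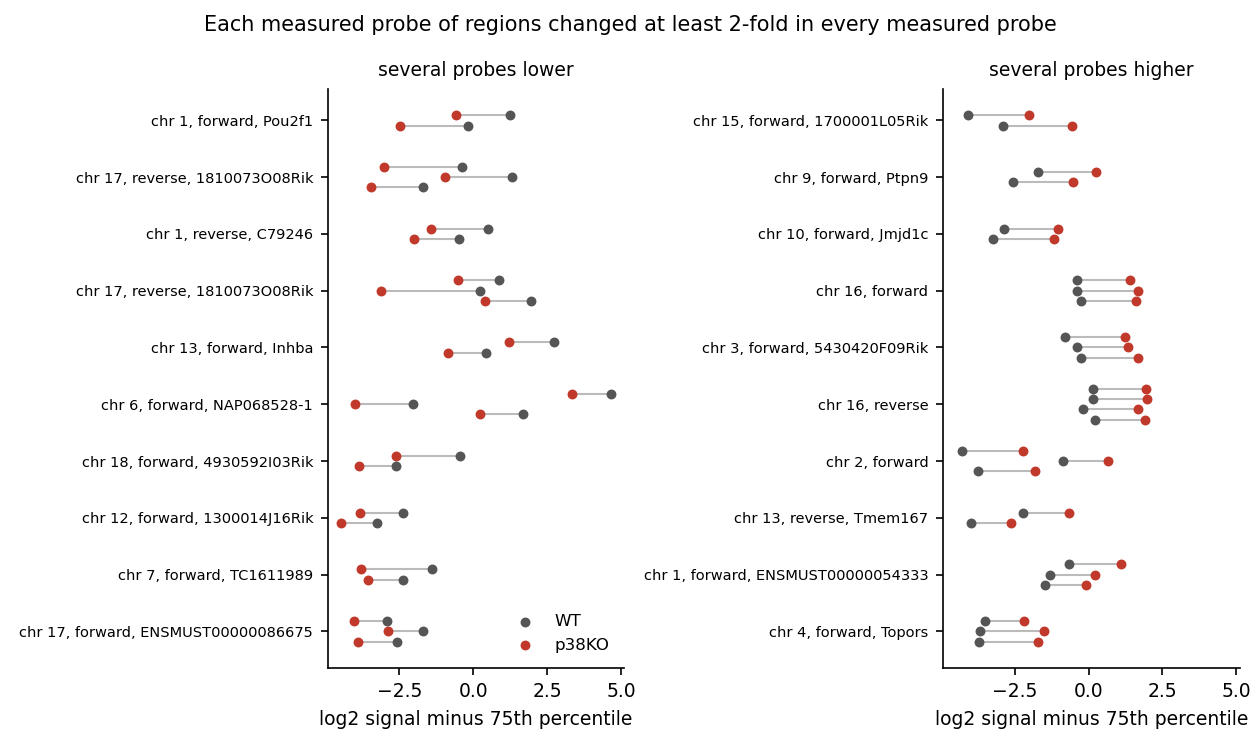
Log2 signal relative to the 75th percentile (x axis) of each measured probe on the WT and p38KO arrays, joined by a line, for the 10 regions with the largest smallest change in each direction, labelled by chromosome, strand and nearest gene-named probe within 100 kb. Probes of 1 region move in the same direction by construction of the rule.

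Neighbouring genes were a guide to a region mainly at short range. A gene-named probe lay within 100 kb of 14297 of the 15488 placed intergenic probes. Over the 6497 pairs with both probes measured the r of the differences was 0.11. Within 1 kb it was 0.44 on the same strand (486 pairs) and 0.36 on the opposite strand (524 pairs), and between 10 and 100 kb it was 0.02 and 0.09. Some intergenic probes share a run of at least 30 bases with a gene-named probe. Over 99 such measured pairs in the same orientation the r was 0.83, and over 69 in the opposite orientation 0.81. The part of shared sequence in the r within 1 kb was not tested. Of the 18 lower regions above, 13 had a measured neighbour, which was lower for 8 and at least 2-fold lower for 3. Of the 25 higher regions 18 had one, which was higher for 10 and at least 2-fold higher for 2. Over all measured gene-named probes 5.78% were at least 2-fold lower and 4.20% higher. These counts are small, and the pair of regions near 1810073O08Rik shares its neighbour.

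Both strands were measured in 875 intervals. The differences of the brightest probe of each strand had an r of 0.19 and a rho of 0.27, with the same sign in 64.5%. Their signals lay a median of 1.47 apart, which holds the effect of probe sequence as well as any imbalance of the strands.

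The loci of 53 genes on 4 lists (HSC regulators, p38 and stress genes, interferon and inflammation, and mature lineages) were then searched for intergenic regions within 100 kb. Only 14 of the 53 had one. None was found near Gata2, Runx1, Hlf, Kit or the 4 p38 genes Mapk11 to Mapk14. The 122 measured probes near the 14 genes had a median difference of 0.25, with 8 at least 2-fold lower (6.56%) and 14 higher (11.48%), against 5.52% and 5.01% of all measured probes.

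Of the 14 higher probes, 12 came from the locus of Mecom, which encodes the transcription factor EVI1, needed for self-renewal of LT-HSCs. Of 35 intergenic probes in 10 regions, 31 were measured. Their median difference was 0.69, 28 were higher on the array labelled p38KO, 12 were at least 2-fold higher (38.7%, against 5.01% of all measured probes) and none was 2-fold lower (against 5.52%). On the forward strand of chr3:30099759-30133959 the 5 probes differed by 0.87 to 1.36, and 4 passed 2-fold. On the reverse strand of the same interval the 5 probes differed by -0.34 to 0.39, the brightest going from 2.34 to 2.73. In chr3:30052149-30052393 on the reverse strand both probes passed 2-fold (1.24 and 1.63). Several of these regions overlap, so their probes are not separate readings.

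Mecom itself has 3 probes that did not move alike. The brightest went from 0.46 to -0.98 (-1.44) but lies 172.7 to 249.6 kb from the probes of these regions, whereas the nearest differed by -0.10 and the other by 0.61. All 10 regions lie between the Mecom probes, that is, within the span of that gene's own probes. With normexp 29 of the 31 probes were higher, with a median of 0.39, and 1 passed 2-fold.

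**Figure D5:**
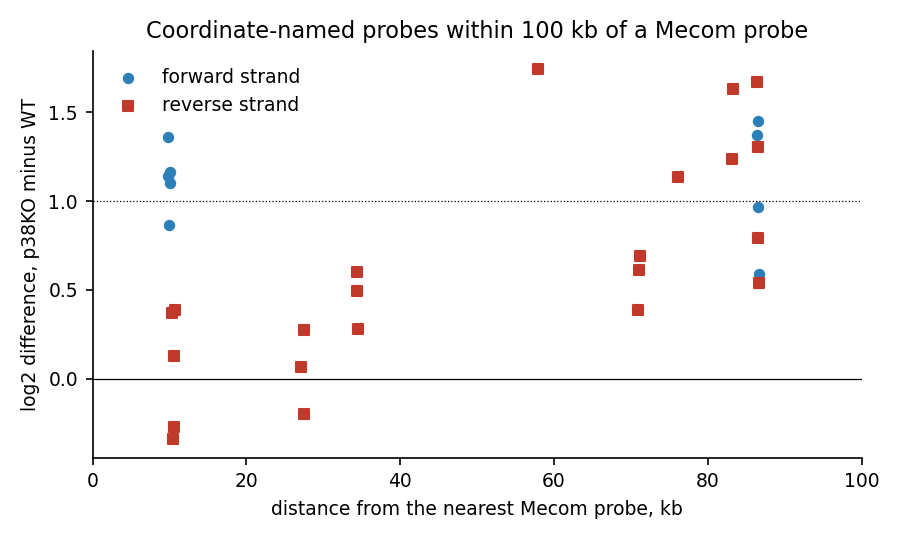
Log2 difference p38KO minus WT (y axis) of the 31 measured coordinate-named probes within 100 kb of a Mecom probe against their distance from the nearest Mecom probe in kb (x axis), by strand. The solid line marks 0 and the dotted line 2-fold, which 12 probes exceed.

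At other loci the values were smaller or mixed. Near Hoxb4, a homeobox gene of HSC expansion, 12 measured probes in 5 regions had a median of 0.47 but ran from -2.98 to 1.13, and Hoxb4 differed by 0.23. Near Meg3, an imprinted noncoding RNA, 28 probes in 11 regions had a median of 0.24, and the brightest Meg3 probe differed by -0.44. Near Irf1, an interferon response factor, 14 probes had a median of -0.04. The brightest probe of chr11:53574182-53574644 on the reverse strand read 6.65 and 7.09. The region's other probes, at -6.00 and -4.29 on the WT array and -5.48 and -4.87 on the other, did not count as measured.

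Near Dusp1, a phosphatase gene that dampens p38 signalling, the 1 probe of chr17:26679595-26688270 on the reverse strand went from 4.37 to 2.81 (-1.55), while Dusp1 differed by 0.12. The other 3 measured probes near Dusp1 differed by -0.61, 0.10 and 0.53, which gives a median of -0.25 over the 4. Near Jchain, all 10 probes of chr5:88995039-89009064, 5 on each strand, were measured. They had a median of -0.89, and 9 were lower on the array labelled p38KO, on which Jchain was 3.75 higher. Near Cdkn1a, the p21 gene, 7 probes had a median of -0.24 against 2.42 for the gene, and near S100a9 5 probes had a median of 0.26 against 2.01. At Jchain, Cdkn1a and S100a9 the median of the regions' probes was thus opposite to the difference of the gene or smaller.

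A further group was above background on 1 array only, and for it only a bound can be given, with the dim side at the lowest signal well above background. The largest bounds were in chr7:86680928-86700632 on the forward strand (-0.12 against a dim side of -5.60), at least 25.4-fold lower on the p38KO-labelled array, and in chr5:53931541-53945241 on the forward strand (-1.28 against -4.88 on the WT array), at least 10.3-fold higher. The other 2 probes of the chr7 region were above background on neither array. Nor was a probe for LOC102638488, which lies 3 bases away and shares a run of at least 30 bases with the bright one, at -6.84 and -6.94. In the chr5 region another probe, measured on both arrays, differed by 0.74. Both bounds hold for the main processing only. With normexp the differences were -1.51 in the chr7 region and 1.02 in the chr5 region.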

How the data were processed

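Total RNA of sorted LT-HSCs was hybridized by the authors' contractor to single-colour Agilent arrays, 1 per genotype, and scanned with Agilent Feature Extraction 11.5.1.1. The deposited files hold each spot's background-subtracted intensity, not normalized between arrays. A second deposited table gives 35795 probes as log2 intensity less 1 constant per array, and served as an alternative. The build of the array's coordinates is mm9.

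Here control spots and spots marked as outliers were left out (11 coordinate-named probes), log2 intensity was averaged per probe, and each array's 75th percentile was subtracted. A region is a coordinate name, stood for by its brightest probe. Named regions are the 10 brightest, the 10 largest falls and rises at the brightest probe, up to 10 per direction with at least 2 measured probes all past 2-fold, up to 5 bounds per direction, and the brightest region within 100 kb of each listed gene. The region near Cmah and the further regions at the Malat1 and Mecom loci were added after their values were seen. Distances run between probe midpoints. Symbols missing from the array were matched through synonyms in a RefSeq table of GRCm38.p6, used for names only. The members, lists and rules were chosen with earlier results of these data known.

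Alternatives were quantile normalization, median centring, loess (span 0.3), normexp (offset 50), the authors' values, other detection rules and floors, outlier spots kept, chromosomes X and Y, and other neighbour rules. The calculations were tested on simulated data. Python 3.11.15, numpy 2.4.6, pandas 2.3.3, scipy 1.17.1, matplotlib 3.10.9, R 4.3.3 and limma 3.58.1 were used. The number of arrays limits the precision. The values of 1 marker gene are not reported here.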

Additional observations from a re-analysis of the deposited data

How the results depend on the processing

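The median difference of coordinate-named probes stayed above 0 under all 9 alternatives, from 0.02 without a filter to 0.15 with normexp, and exceeded the gene-named median under each of the 6 scalings and spot filters compared. The share well above background was 82.7% (WT) and 84.3% (p38KO) by the scanner software's own p. With normexp the probes at least 2-fold lower and higher numbered 50 and 50, the median absolute difference fell from 0.40 to 0.22, the strands of an interval lay 0.81 apart, the correlation between probes of 1 region was 0.49, and 25 of the 39 named changed regions stayed past 2-fold. The offset of 50 by construction shrinks differences of dim probes. With probes measured on at least 1 array, 834 were lower and the correlation between probes of 1 region was 0.26, and without the floor 1012 were lower and 1260 higher. The correlation with the nearest gene-named probe was 0.17 within 10 kb and 0.0228 with the brightest gene-named probe within 100 kb. The cause of these last changes was not tested. None of the 39 regions named for a change turned its sign under the 6 scalings and spot filters. They were chosen for large differences on these same arrays, so a turned sign was unlikely from the start and this is no support for them. Of 24 regions named for brightness or locus, 2 turned their sign, both with a difference of at most 0.0184 in size. The bounds were not recomputed, but with normexp the differences of the 2 regions given with a bound were -1.51 and 1.02. No paired analysis was possible because there is 1 array per genotype, and for the same reason no replicate could be left out. Comparisons by quartile of signal, GC band, level of the dimmer probe and several probes per region, the shares over all probes under each scaling and the scalings of bright and locus regions were added after seeing the data.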
